A study of Homo sapiens with 16 samples.

Results

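The RNA described here came from 8 of the 16 libraries of a study of mesenchymal stem cells (MSCs), chosen by their labels alone. They are the 4 libraries of cells given mitomycin C and then growth differentiation factor 11 (MmC+/GDF11+) and the 4 of cells given growth differentiation factor 11 without mitomycin C (MmC-/GDF11+), replicates 1 to 4 of each. All cells were of ASC52telo, an MSC line from adipose tissue that was made immortal with TERT, so every group carries that transgene. Mitomycin C (MmC) acted for 18 h at a dose of 1.5 µg/mL. Growth differentiation factor 11 (GDF11) followed at 10 ng/mL until RNA was taken after 10 days. Both groups received GDF11, so the comparison asks what MmC changed in cells to which the cytokine was added. The other 8 libraries, MmC+/GDF11- and MmC-/GDF11-, make the same comparison without GDF11 and serve here only to test whether the MmC effect differed.

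MmC crosslinks the strands of DNA, and cells that cannot clear such damage can leave the cell cycle for good, a state called senescence. Stabilized p53 raises the cyclin-dependent kinase inhibitor p21, mitotic and replication genes are shut off, and many senescent cells begin to secrete cytokines, chemokines and proteases, the senescence-associated secretory phenotype, much of it through NF-kappaB, AP-1 and C/EBP factors. GDF11 is an activin-type ligand of the TGF-beta family that acts through type I receptors such as TGFBR1 and the transducers SMAD2 and SMAD3.

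The libraries were poly(A)-enriched, and the deposited counts of reads per gene summed to between 71275337 and 85813114 in MmC-/GDF11+ and between 79548222 and 144204979 in MmC+/GDF11+. Levels below are TMM-scaled CPM, which is a gene's count relative to the scaled total of its library, always listed for replicates 1 to 4 in that order, and differences are log2 fold changes of MmC+/GDF11+ over MmC-/GDF11+ with their standard error (SE) from edgeR's quasi-likelihood fit. A gene passed the test at a Benjamini-Hochberg adjusted p under 0.05 over 19103 genes. Of these, 8926 genes passed (46.7%), 4468 higher (23.4%) and 4458 lower (23.3%) after MmC, and in 7921 genes (41.5%) the 4 and 4 libraries did not overlap. Counts of list members below are to be read against these shares. Among the genes that passed, 2140 rose and 1151 fell at least 2-fold, and 497 rose and 38 fell at least 8-fold. The MSC markers NT5E, ENG and THY1 were abundant in all 8 libraries, with 507 CPM of ENG as their lowest value, while the leukocyte gene PTPRC, of which 36.6% of the sequence recurs on alternate contigs of the assembly, reached at most 0.8002 CPM. MmC+/GDF11+ replicate 1 stood apart. The first principal component of the 500 most variable genes, which held 87.1% of their variance, placed MmC+/GDF11+ replicate 1 at 22.6 and the other 3 MmC+/GDF11+ libraries at 42.9 to 50.6, against -42.6 to -37.1 for MmC-/GDF11+. Its place among the 4 is given beside several groups of genes. In RNA from whole cultures, fewer cells expressing a gene and less of its RNA per cell cannot be told apart.

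The genes that moved most included mitotic and chemokine genes, and the promoters of 3 of each are shown as examples that hold a motif searched for, upstream of the RefSeq start (GRCh38.p14), 5′ to 3′ on the gene's strand. The first 3 belong to mitotic genes that fell, with the cell cycle homology region TTTGAA and the CCAAT box, on either strand, in capitals.
CDC20: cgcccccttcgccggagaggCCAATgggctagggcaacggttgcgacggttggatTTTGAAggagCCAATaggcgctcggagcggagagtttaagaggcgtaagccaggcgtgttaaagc
CCNB2: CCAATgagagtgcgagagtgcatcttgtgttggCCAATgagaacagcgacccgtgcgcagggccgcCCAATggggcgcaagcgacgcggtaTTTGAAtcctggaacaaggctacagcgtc
KIF20A: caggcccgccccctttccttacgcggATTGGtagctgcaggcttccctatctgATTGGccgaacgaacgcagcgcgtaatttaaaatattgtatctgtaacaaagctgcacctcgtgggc
The next 3 belong to chemokine genes that rose, with the NF-kappaB consensus in capitals, also searched on either strand.
CXCL1: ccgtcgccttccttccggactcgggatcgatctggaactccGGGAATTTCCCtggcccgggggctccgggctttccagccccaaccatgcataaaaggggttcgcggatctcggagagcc
CXCL5: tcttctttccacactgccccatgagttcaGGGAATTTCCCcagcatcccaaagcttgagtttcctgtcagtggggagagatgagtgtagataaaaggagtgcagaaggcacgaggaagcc
CCL20: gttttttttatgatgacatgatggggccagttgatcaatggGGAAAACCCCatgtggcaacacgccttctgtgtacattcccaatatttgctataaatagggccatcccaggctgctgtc
The CDC20 stretch lies at chr1:43358861-43358980, that of CCNB2 at chr15:59105026-59105145 and that of KIF20A at chr5:138178992-138179111, all on the plus strand. The CXCL1 stretch lies at chr4:73869273-73869392 and that of CCL20 at chr2:227813722-227813841 on the plus strand, and that of CXCL5 at chr4:73998678-73998797 on the minus strand. Over the 250 bases before the start, TTTGAA stood in 19 of 31 mitosis genes with a single start in the table (61.3%), in 1 of 24 DNA replication genes (4.17%) and in 787 of 9096 tested genes (8.65%). It also stood in 61 of 423 genes that rose at least 4-fold (14.4%) and in 17 of 80 that fell at least 4-fold (21.2%). CCAAT stood in 24 of the 31 mitosis genes (77.4%) and in 35.8% of all. The NF-kappaB consensus stood in 7 of 10 CXC chemokine genes (70%), in 5 of 8 NF-kappaB genes (62.5%) and in 11.4% of all. Before the start, CXCL1 and CXCL3 were identical at 90.8% of 120 bases, and CXCL5 and CXCL6 at 92.4% of 119 bases. Matches within such a pair are not separate occurrences. The NF-kappaB consensus also stood in 1 of 5 CC and CX3C chemokine genes, which was CCL20, in 1 of 5 interleukin and colony-stimulating factor genes, and in 14.4% of the 423 genes that rose at least 4-fold and had a promoter in the table. The AP-1 motif TGANTCA stood in 3 of the 10 CXC chemokine genes (30%), in 12.8% of those 423 genes and in 4.62% of all. A match is a run of letters and not evidence of binding.

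The p53 target genes rose as a group. Of 32 tested, 25 passed higher, 1 passed lower and 6 did not pass, with a median log2 fold change of 1.31 against -0.01 over all genes. CDKN1A (ENSG00000124762.14, chromosome 6 of hg38 from 36676460 to 36687337), which encodes p21, was at 375, 207, 195 and 166 CPM in MmC-/GDF11+ and at 2007, 1440.0, 1319 and 1039.7 CPM in MmC+/GDF11+. The groups did not overlap, and replicate 1 was the highest of its group on both sides (log2 fold change 2.62 ± 0.30, adjusted p = 5.8e-06). MDM2, the ubiquitin ligase that degrades p53, went from 66.9, 40.2, 35.9 and 33.8 CPM to 258, 169, 147 and 111 CPM (log2 fold change 1.96 ± 0.31, adjusted p = 0.000132). GDF15, a stress-induced TGF-beta family cytokine, showed the largest increase of the list, from 28.7, 13.2, 11.4 and 9.19 CPM to 276, 472, 444 and 346 CPM (log2 fold change 4.62 ± 0.41, adjusted p = 9.51e-07). MmC+/GDF11+ replicate 1 held the highest value of its group in 28 of the 32 p53 targets (87.5%), against 37.3% of all genes tested.

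Among 7 tested cyclin-dependent kinase inhibitors, 2 passed higher and 3 lower. CDKN2B, which encodes p15, was the other that rose, from 21.9, 21.4, 20.8 and 23.1 CPM to 35.7, 33.7, 37.9 and 52.2 CPM (log2 fold change 0.87 ± 0.14, adjusted p = 0.000126). CDKN2A, the gene of p16 and ARF, stayed near 1 CPM, with 0.848, 0.966, 0.984 and 1.19 CPM without and 0.602, 0.803, 1.3 and 1.39 CPM with MmC. Its groups overlapped, and no difference was called (log2 fold change 0.04 ± 0.27, adjusted p = 0.911). CDKN2C, which encodes p18, fell from 73.7, 92.8, 82.2 and 77 CPM to 18.9, 20.5, 19.992 and 21.6 CPM with little spread inside either group (log2 fold change -2.01 ± 0.10, adjusted p = 1.64e-09).

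**Figure D1:**
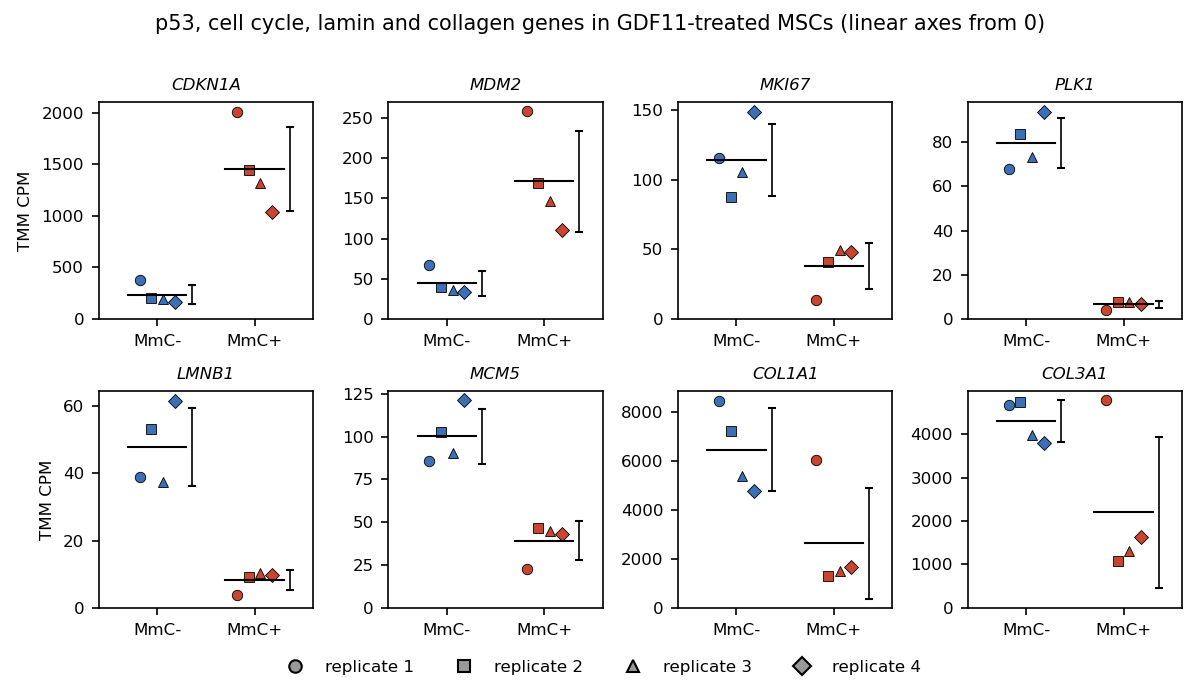
Level (TMM-scaled CPM, linear axes from 0) of 8 genes in the 4 MmC-/GDF11+ libraries (blue) and the 4 MmC+/GDF11+ libraries (red), with marker shape for the replicate, a line for the mean and a bar for ± SD (n = 4). CDKN1A and MDM2 rose, MKI67, PLK1, LMNB1 and MCM5 fell without overlap, and for COL1A1 and COL3A1 replicate 1 of MmC+/GDF11+ lay with the MmC-/GDF11+ libraries.

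Mitosis was the most uniform group. Of 42 genes tested 41 passed lower, none higher, and in all 42 the 4 and 4 libraries did not overlap, with a median log2 fold change of -1.89. PLK1 (ENSG00000166851.15, chromosome 16 of hg38 from 23677656 to 23690367), the kinase that drives mitotic entry and exit, fell from 68, 83.8, 73.2 and 93.6 CPM to 4.13, 7.81, 7.81 and 6.61 CPM (log2 fold change -3.59 ± 0.30, adjusted p = 5.11e-07). KIF20A, a kinesin of cytokinesis, fell from 79.9, 74.5, 70.4 and 94.6 CPM to 4.2, 9.99, 9.66 and 7.43 CPM (log2 fold change -3.35 ± 0.29, adjusted p = 7.69e-07). CDC20, the activator of the anaphase-promoting complex, fell from 102, 141, 120.2 and 149.5 CPM to 7.33, 23.2, 21.7 and 17 CPM (log2 fold change -2.89 ± 0.40, adjusted p = 4.1e-05). These 3 were among the 10 lowest protein-coding genes under the naming rule. The mitotic cyclin CCNB1 fell from 111, 151, 129 and 153 CPM to 13.1, 26.6, 25 and 21.1 CPM (log2 fold change -2.66 ± 0.29, adjusted p = 5.43e-06), and CCNB2, whose promoter is shown above, from 43.8, 47.2, 47.5 and 54.4 CPM to 6.03, 15.6, 15.3 and 13.2 CPM (log2 fold change -1.94 ± 0.33, adjusted p = 0.000231). MKI67, the gene of the proliferation antigen Ki-67, kept more of its transcript, with 115, 87.4, 106 and 149 CPM before and 13.7, 40.9, 49.8 and 48 CPM after MmC (log2 fold change -1.58 ± 0.38, adjusted p = 0.00355). MmC+/GDF11+ replicate 1 had the lowest value of its group in all 42 mitosis genes, against 36.9% of all genes tested.

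DNA replication genes fell less evenly. Of 35 tested, 18 passed lower and none higher, although 26 did not overlap, and the median log2 fold change was -0.69. MCM6, a subunit of the replicative helicase, fell from 68.2, 76.3, 62.7 and 86.7 CPM to 23.1, 30.3, 30.3 and 28.4 CPM (log2 fold change -1.39 ± 0.15, adjusted p = 3.97e-06). GINS2, which joins that helicase, fell from 17.7, 22.1, 20.9 and 22.6 CPM to 3.31, 6.2, 6.54 and 5.09 CPM (log2 fold change -1.97 ± 0.26, adjusted p = 2.08e-05). E2F1, the factor that switches on S-phase genes, did not pass, at 20.6, 22.7, 20.003 and 26.5 CPM without and 9.59, 29.6, 30.3 and 27.8 CPM with MmC (log2 fold change 0.12 ± 0.37, adjusted p = 0.816). Its replicates 2, 3 and 4 after MmC lay above every MmC-/GDF11+ library, while replicate 1 lay below all of them. Replicate 1 was the lowest of its group in 32 of the 35 replication genes (91.4%). Of 25 genes of interstrand crosslink repair, the pathway that handles MmC lesions, 9 passed lower and none higher, and FANCD2, a central component, fell from 19, 21.2, 16.5 and 24 CPM to 3.84, 7.26, 7.68 and 7.09 CPM (log2 fold change -1.64 ± 0.25, adjusted p = 9.48e-05).

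Loss of lamin B1 and of HMGB proteins is a common mark of senescent nuclei. Of 13 nuclear lamina and HMGB genes 11 passed lower and none higher. LMNB1 fell from 38.8, 53, 37.5 and 61.5 CPM to 3.94, 9.24, 10.4 and 9.75 CPM (log2 fold change -2.51 ± 0.36, adjusted p = 5.71e-05), and HMGB2 from 125, 144, 164 and 168 CPM to 19.4, 39, 44.7 and 44.8 CPM (log2 fold change -2.02 ± 0.30, adjusted p = 7.73e-05). The lysosomal side moved up. Of 24 lysosomal genes 17 passed higher and 1 lower, with a median log2 fold change of 0.55. GLB1, the source of senescence-associated beta-galactosidase activity, rose modestly from 84.9, 76.2, 84.3 and 85.4 CPM to 136, 101, 102 and 111 CPM (log2 fold change 0.44 ± 0.11, adjusted p = 0.00319), and the protease gene CTSS rose most of the list, from 9.67, 7.63, 7.72 and 5.51 CPM to 51.5, 73.4, 74.2 and 50.7 CPM (log2 fold change 3.03 ± 0.22, adjusted p = 1.07e-07).

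The secretory genes gave the largest increases. Of 16 interleukin and colony-stimulating factor genes 13 passed higher and 1 lower, with a median log2 fold change of 5.14. IL6 (ENSG00000136244.12, chromosome 7 of hg38 from 22725884 to 22732002) was at 6.73, 3.69, 2.95 and 2.48 CPM without MmC and at 134, 759, 911 and 663 CPM with it (log2 fold change 7.29 ± 0.72, adjusted p = 2.16e-06). The groups lay far apart, but replicate 1 of MmC+/GDF11+ was well below the other 3. LIF, a cytokine of the IL-6 family, went from 4.57, 4.65, 4.5 and 5.28 CPM to 53.8, 405, 557 and 472 CPM (log2 fold change 6.29 ± 0.74, adjusted p = 1.06e-05). IL1B went from 6.36, 4.75, 3.99 and 4.19 CPM to 78.2, 278, 300.0 and 134 CPM (log2 fold change 5.36 ± 0.51, adjusted p = 1.53e-06), and IL1A, an upstream trigger of the secretory programme, from 1.61, 0.818, 1.3 and 0.838 CPM to 13.6, 41.2, 47.5 and 21.9 CPM (log2 fold change 4.77 ± 0.47, adjusted p = 2.05e-06). CSF3, the gene of granulocyte colony-stimulating factor, had 1 count in the 4 MmC-/GDF11+ libraries together and 8034 counts in the 4 MmC+/GDF11+ libraries, a ratio of 6040 per total count (95% exact counting interval 1080 to 239000). That interval covers counting error only, for reads pooled over 4 libraries, and not the spread between libraries. With 1 count without MmC, CSF3 could hardly have passed lower, and it is among the 13 that passed higher. Its CPM after MmC was 0.588, 26.2, 29.3 and 11.9, again with replicate 1 lowest, and the call was lost under limma-voom. Replicate 1 was the lowest of its group in 14 of the 16 genes (87.5%).

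Of 11 CXC chemokine genes 9 passed higher and 1 lower, with a median log2 fold change of 5.46. CXCL8, the neutrophil attractant, became one of the more abundant transcripts, rising from 15.8, 24.4, 22.9 and 14.5 CPM to 1023, 4377, 5141 and 3028 CPM (log2 fold change 7.45 ± 0.60, adjusted p = 3.74e-07). CXCL1 rose from 11, 19.2, 16.6 and 15.4 CPM to 704, 1384, 1369 and 953 CPM (log2 fold change 6.15 ± 0.33, adjusted p = 4.71e-09) and CXCL5 from 6.93, 8.07, 6.94 and 8.36 CPM to 301, 1639.6, 1832 and 911 CPM (log2 fold change 7.27 ± 0.66, adjusted p = 1.01e-06). CXCL6, a neighbour of these genes on chromosome 4, was the steadiest, from 8.62, 9.35, 7.13 and 7.18 CPM to 635, 758, 826 and 581 CPM (log2 fold change 6.44 ± 0.18, adjusted p = 1.98e-12). In CXCL6 the MmC+/GDF11+ replicate 1 lay inside the range of the other 3, unlike in CXCL8 and CXCL5. The member that fell was CXCL12, a homeostatic chemokine that holds blood stem cells in the marrow, at 540.1, 565, 619 and 697 CPM without and 421, 267, 269.8 and 402 CPM with MmC (log2 fold change -0.83 ± 0.19, adjusted p = 0.00216). Of 9 CC and CX3C chemokine genes 8 passed higher and none lower. CCL20 is among the 8, and from its level without MmC it could hardly have passed lower. CCL20, at 0.0556, 0.134, 0.0639 and 0.0112 CPM without MmC, reached 2.9, 39.1, 49 and 43.6 CPM with it (log2 fold change 9.01 ± 1.15, adjusted p = 2.16e-05), and the log2 fold change was 9.61 without MmC-/GDF11+ replicate 2.

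**Figure D2:**
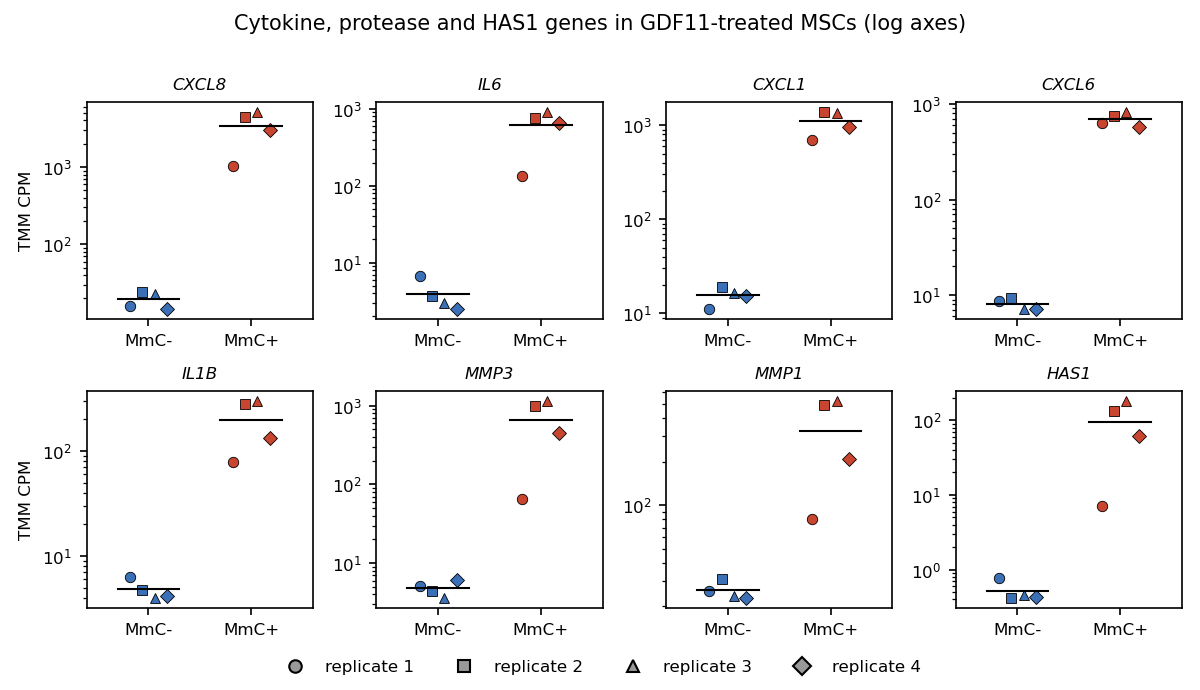
Level (TMM-scaled CPM, log axes) of 8 cytokine, protease and matrix-synthesis genes in the 4 MmC-/GDF11+ libraries (blue) and the 4 MmC+/GDF11+ libraries (red), with marker shape for the replicate and a line for the mean. No gene overlaps between groups, and replicate 1 (circle) is the lowest MmC+/GDF11+ library in each but CXCL6.

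Of 17 genes of NF-kappaB subunits, inhibitors and targets 13 passed higher and none lower. TNFAIP3, which ends NF-kappaB signalling and is itself a target, was nearly the same in every library of a group, with 24.2, 26.3, 22.5 and 27.5 CPM without and 133, 136, 133 and 137 CPM with MmC (log2 fold change 2.42 ± 0.09, adjusted p = 8.11e-11). ICAM1, an adhesion molecule, went from 76.4, 28.2, 29.4 and 29.3 CPM to 309, 130.0, 103 and 127 CPM (log2 fold change 2.04 ± 0.47, adjusted p = 0.00242). Here replicate 1 was the highest of its group, the reverse of its place in the cytokine genes. Among AP-1 and C/EBP factors 7 of 14 passed higher and 1 lower. Of 25 interferon-stimulated genes 14 passed higher and 1 lower, but only 7 did not overlap, and 9 passed higher without MmC+/GDF11+ replicate 4.

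Proteases and matrix genes did not move together. Of 13 matrix metalloproteinase genes 10 passed higher and none lower. MMP8 and MMP13 had 3 counts each in the 4 MmC-/GDF11+ libraries together, against 384 and 87 in MmC+/GDF11+. For these a lower call was hardly possible. MMP3 (stromelysin) rose from 5.14, 4.48, 3.6 and 6.09 CPM to 64.8, 991, 1145 and 451 CPM (log2 fold change 7.10 ± 0.96, adjusted p = 3.53e-05) and MMP1 (interstitial collagenase) from 25.7, 30.8, 23.7 and 22.8 CPM to 79.9, 492, 524 and 207 CPM (log2 fold change 3.66 ± 0.59, adjusted p = 0.000171). Of 15 TIMP and ADAMTS genes 8 passed higher and 4 lower. The inhibitor TIMP1 rose from 1066, 931, 874 and 573 CPM to 2166, 2761, 2794 and 1929 CPM (log2 fold change 1.49 ± 0.26, adjusted p = 0.000277), and ADAMTS15, an aggrecan-cleaving protease, fell from 46.9, 62.2, 65.9 and 67.2 CPM to 9.11, 3.96, 4.22 and 9.73 CPM (log2 fold change -3.17 ± 0.36, adjusted p = 8.15e-06). All 7 plasminogen system genes passed, 6 higher and 1 lower. HAS1, a hyaluronan synthase and the highest protein-coding gene under the naming rule, rose from 0.764, 0.416, 0.46 and 0.424 CPM to 7.18, 132, 182 and 62.1 CPM (log2 fold change 7.54 ± 1.08, adjusted p = 6.21e-05).

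Of 30 collagen and matrix protein genes 5 passed higher, 4 lower and 21 did not pass, with shares below the 23.4% and 23.3% over all genes. COL1A1 (ENSG00000108821.14, chromosome 17 of hg38 from 50184101 to 50201632) was at 8437, 7226, 5372 and 4774 CPM without and 6034, 1319, 1506 and 1674 CPM with MmC and missed the threshold (log2 fold change -1.29 ± 0.54, adjusted p = 0.0612). COL3A1 was at 4682, 4734, 3978 and 3798 CPM and 4777, 1079.6, 1303 and 1636 CPM (log2 fold change -0.97 ± 0.48, adjusted p = 0.111). In both, 3 of the 4 MmC+/GDF11+ libraries lay below every MmC-/GDF11+ library, and replicate 1 lay within the MmC-/GDF11+ range for COL1A1 and above it for COL3A1. Without that library the log2 fold change was -2.10 (edgeR adjusted p = 0.00293) for COL1A1 and -1.67 (adjusted p = 0.00461) for COL3A1, and 10 genes of the list passed lower in place of 4. Without MmC+/GDF11+ replicate 3, 2 passed lower. Of 15 contractile and CCN genes 1 passed higher and 4 lower, the lower share being near the 23.3% over all genes. The lower count was 1 without MmC+/GDF11+ replicate 3 and 2 without MmC+/GDF11+ replicate 2 or 4 or MmC-/GDF11+ replicate 4, and the higher count was 3 without MmC+/GDF11+ replicate 4 and 2 without MmC-/GDF11+ replicate 1. ACTA2, the smooth muscle actin of myofibroblasts, did not pass (log2 fold change 0.37 ± 0.31, adjusted p = 0.337), and 34.9% of its sequence is shared with an antisense gene, whose reads may not have been told apart.

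**Figure D3:**
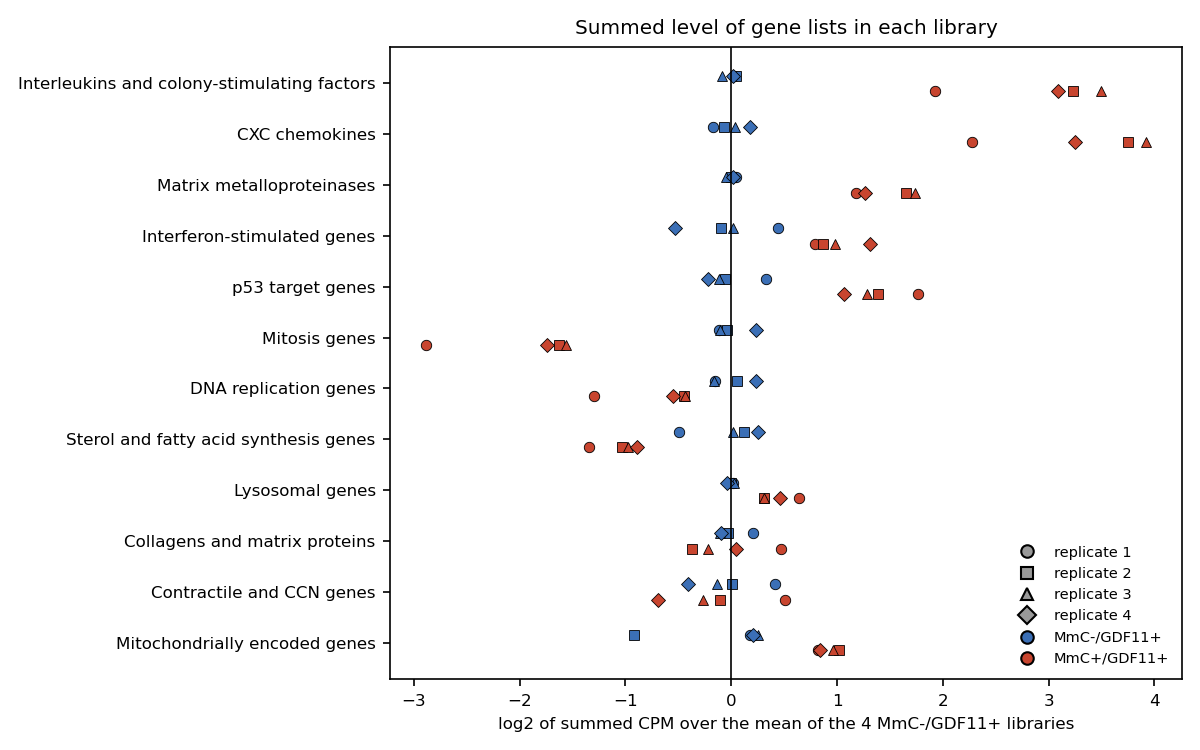
Summed CPM of the tested members of 12 gene lists in each of the 8 libraries, as log2 over the mean of the 4 MmC-/GDF11+ libraries (blue), with MmC+/GDF11+ in red and marker shape for the replicate. Replicate 1 of MmC+/GDF11+ (red circle) is highest for p53 targets, lysosomal genes and collagens and lowest for mitosis, replication, interleukin and CXC chemokine genes.

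The summed levels show how far that library departed. The 16 interleukin and colony-stimulating factor genes summed to 214, 216, 197 and 211 CPM without MmC and 794, 1972, 2358 and 1779 CPM with it. The mitosis genes summed to 2547, 2674, 2556 and 3237 CPM and 373, 891, 935 and 822 CPM, and the p53 targets to 2014, 1547, 1489 and 1385 CPM and 5471, 4198, 3927 and 3375 CPM. Replicate 1 thus combined the highest p53 target level with the lowest mitotic and cytokine levels, and still lay outside the MmC-/GDF11+ range in all 3. MmC+/GDF11- replicate 1 deviated from its own group mean in the same way, with a correlation of 0.818 across genes with MmC+/GDF11+ replicate 1, given as a description of 2 libraries.

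Ligands and receptors of the pathway that GDF11 uses were measured on the same libraries. Of 20 activin-type ligands, receptors and antagonists 10 passed higher and none lower. The gene GDF11 (ENSG00000135414.10, chromosome 12 of hg38 from 55743122 to 55757264) itself rose slightly, from 17.3, 17.1, 18.6 and 21.2 CPM to 26.6, 25.1, 22.5 and 21.5 CPM (log2 fold change 0.37 ± 0.10, adjusted p = 0.00712). INHBA, which encodes the activin A subunit, rose from 73.6, 51.9, 47.3 and 48.3 CPM to 270.5, 374, 483 and 277 CPM (log2 fold change 2.67 ± 0.24, adjusted p = 7.83e-07), and its antagonist FST, follistatin, from 61, 81.3, 79.2 and 90.2 CPM to 123, 246, 282 and 387 CPM (log2 fold change 1.73 ± 0.33, adjusted p = 0.000629). The type I receptor gene TGFBR1 rose from 62, 39.8, 37.5 and 35.5 CPM to 92.3, 87.2, 94 and 77.9 CPM (log2 fold change 1.01 ± 0.18, adjusted p = 0.000247). Of 16 SMAD transducers and SMAD2/3 targets 7 passed higher and 3 lower. SMAD3 did not pass, at 129, 154, 150.1 and 152 CPM and 119, 121, 115 and 143 CPM (log2 fold change -0.24 ± 0.10, adjusted p = 0.0522), and passed without MmC-/GDF11+ replicate 1 or MmC+/GDF11+ replicate 4. The inhibitory SMAD7 rose (log2 fold change 1.05 ± 0.26, adjusted p = 0.00445), and the inhibitory SMAD6 fell from 17, 34.2, 27.8 and 33.5 CPM to 6.02, 7.66, 7.78 and 8.91 CPM (log2 fold change -1.89 ± 0.19, adjusted p = 1.76e-06). Of 18 BMP genes and ID targets 5 passed higher and 3 lower, not far from the 23.4% and 23.3% over all genes. The higher count was 2 without MmC-/GDF11+ replicate 3 and 3 without MmC-/GDF11+ replicate 2 or MmC+/GDF11+ replicate 2 or 3, and the lower count was 5 without MmC+/GDF11+ replicate 1. BMP2 rose from 0.264, 0.148, 0.166 and 0.19 CPM to 2.58, 19.3, 23.7 and 19.7 CPM (log2 fold change 6.41 ± 0.82, adjusted p = 2.09e-05), while ID1, a target of BMP signalling, fell from 50.5, 69.9, 57.6 and 51.4 CPM to 5.18, 18.2, 17.7 and 17.1 CPM (log2 fold change -1.97 ± 0.41, adjusted p = 0.00118).

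Growth factor genes rose in part. Of 19 angiogenic growth factor genes 10 passed higher and 1 lower, among them FGF2, from 144, 106, 104 and 124 CPM to 424, 529, 667 and 411 CPM (log2 fold change 2.09 ± 0.19, adjusted p = 7.32e-07). Of 10 EGF family genes 5 passed higher and 3 lower, with 1 lower without MmC-/GDF11+ replicate 2 or MmC+/GDF11+ replicate 2, 3 or 4. The ligand AREG rose from 1.57, 1.69, 1.62 and 2.01 CPM to 11.8, 69.3, 88.2 and 91.6 CPM (log2 fold change 5.24 ± 0.67, adjusted p = 2.26e-05), and the receptor ERBB3 fell from 10.2, 7.38, 7.85 and 7.64 CPM to 1.39, 1.22, 0.6 and 1.01 CPM (log2 fold change -2.98 ± 0.25, adjusted p = 3.12e-07). Of 9 IGF genes 6 passed higher and none lower, with 3 not overlapping. In prostaglandin metabolism 3 of 13 genes passed higher and 4 lower, not far from the 23.4% and 23.3% over all genes. PTGS2, the inducible cyclooxygenase, rose from 4.35, 7.78, 5.92 and 7.05 CPM to 34.4, 323, 453 and 541 CPM (log2 fold change 5.75 ± 0.83, adjusted p = 6.39e-05).

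Sterol and fatty acid synthesis genes fell almost as uniformly as mitosis genes. Of 20 tested 19 passed lower and none higher, with a median log2 fold change of -0.97. SCD, the stearoyl-CoA desaturase, fell from 393, 831, 839 and 1117 CPM to 112, 176, 202 and 259 CPM (log2 fold change -2.08 ± 0.33, adjusted p = 0.000151). Of 18 adipocyte genes 8 passed higher and 4 lower. ADH1B, the gene that fell most under the naming rule, went from 51.6, 27.1, 34 and 11.3 CPM to 1.12, 0.275, 0.17 and 3.19 CPM (log2 fold change -4.73 ± 1.06, adjusted p = 0.00212), and without MmC+/GDF11+ replicate 4 its log2 fold change was -6.00. PPARG, the adipocyte master regulator, fell from 25.2, 26.3, 30.6 and 29.4 CPM to 12.7, 14.1, 13.1 and 21.6 CPM (log2 fold change -0.86 ± 0.20, adjusted p = 0.00214). Of 11 osteoblast genes 5 passed higher and 1 lower, with 3 lower without MmC+/GDF11+ replicate 1 and 2 without MmC-/GDF11+ replicate 4. They summed to 11272, 9244, 7346 and 6554 CPM without and 9013, 2967, 3077 and 3401 CPM with MmC. Replicate 1 alone of the MmC+/GDF11+ libraries thus lay inside the MmC-/GDF11+ range. COL1A1 is 1 of the 11 genes and made up most of the sum without MmC. In MmC+/GDF11+ replicate 1 it was 6034 CPM of the 9013 CPM, so the sum largely follows COL1A1 there.

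Of 15 NRF2 antioxidant genes 3 passed higher and 3 lower, shares below the 23.4% and 23.3% over all genes. NQO1 was lower (log2 fold change -1.09 ± 0.12, adjusted p = 3.22e-06). FTH1 changed most and was higher (log2 fold change 1.95 ± 0.19, adjusted p = 1.12e-06), with 67.4% of its sequence shared with other genes. The list summed to 6715, 7481, 7483 and 6291 CPM without and 17593.5, 17627, 15074 and 13093 CPM with MmC. A sum weights genes by abundance, and the median log2 fold change of the list was 0.0048. The higher sum is thus not a rise of the list as a whole. Of 18 unfolded protein and integrated stress response genes 9 passed higher and 1 lower. Of 13 BCL2 family genes 5 passed higher and 4 lower, and BCL2A1, an NF-kappaB-induced survival gene, went from 0.153, 0.107, 0.153 and 0.0447 CPM to 0.314, 4.92, 6.1 and 4.46 CPM (log2 fold change 5.12 ± 0.92, adjusted p = 0.000399). BCL2A1 was so low without MmC that it could hardly have passed lower. Of the 13 mitochondrially encoded genes 11 passed higher, and MT-ND1, a complex I subunit, was at 1112, 546, 1241 and 1069 CPM without and 2138, 2647, 2457 and 2039 CPM with MmC (log2 fold change 1.23 ± 0.19, adjusted p = 8.57e-05). MmC-/GDF11+ replicate 2 was low in this RNA, with 1.58% of its counts on these genes against 2.77% to 3.04% in the other 3 libraries and 3.75% to 4.73% in MmC+/GDF11+. Without it 11 genes still passed higher.

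**Figure D4:**
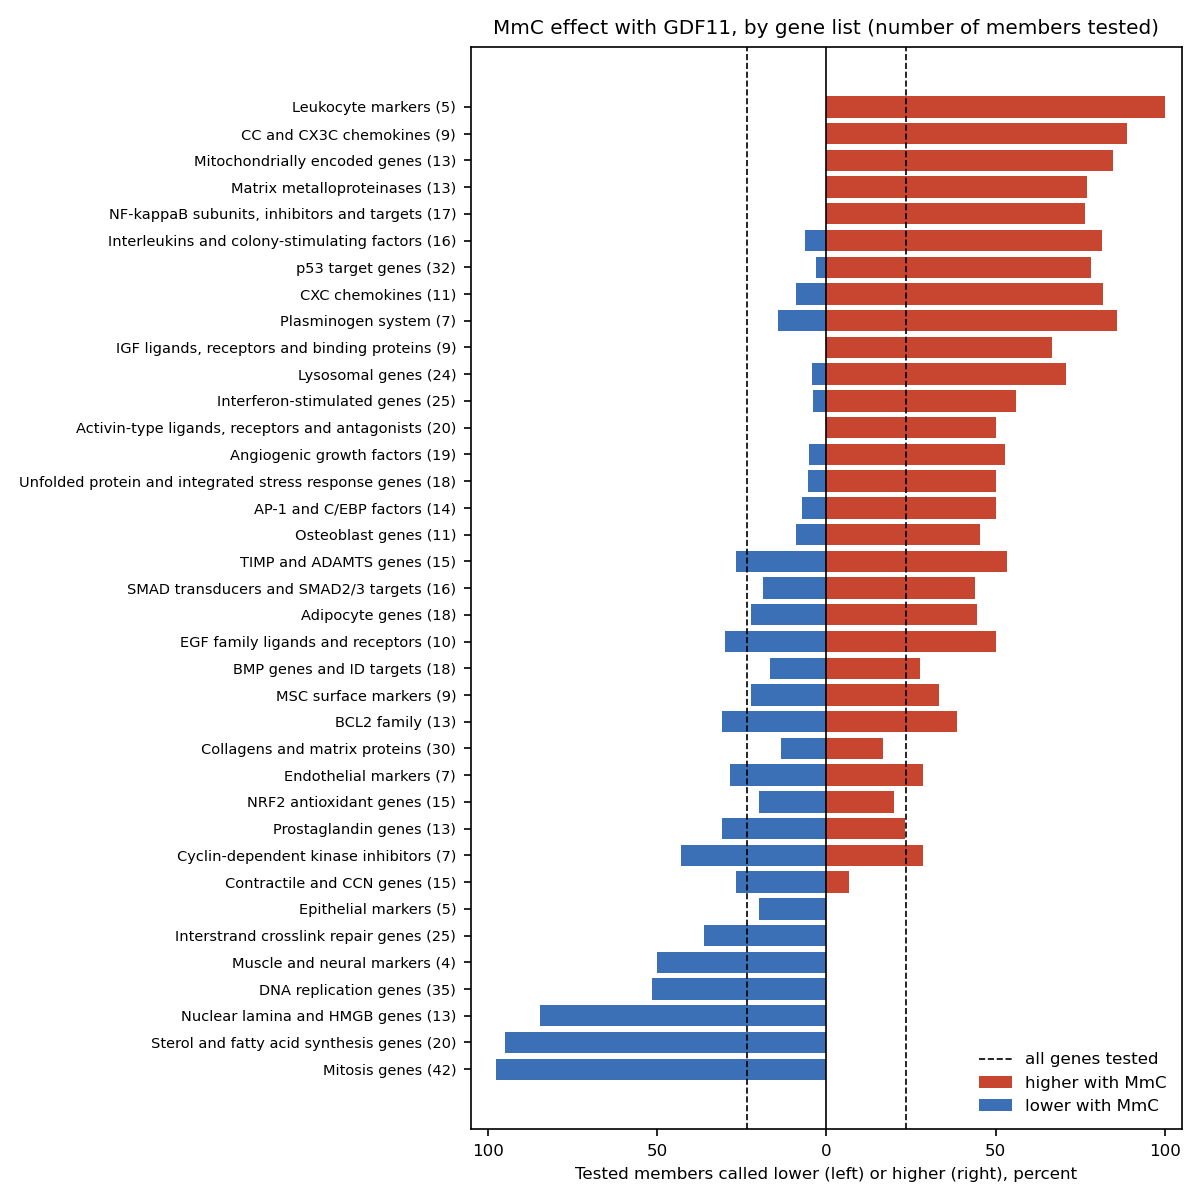
Share of the tested members of each gene list that passed higher (red, right) or lower (blue, left) after MmC with GDF11, with the number tested in parentheses and dashed lines at the shares over all genes tested (23.4% higher, 23.3% lower). Mitosis, sterol and lamina genes lie almost wholly to the left, and chemokine, interleukin, metalloproteinase and p53 target genes mostly to the right.

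Markers of other cell types were also counted. The 5 tested leukocyte markers all passed higher, from a summed 2.53, 1.77, 2.03 and 1.85 CPM to 5.7, 3.97, 3.78 and 4.56 CPM, and CD68 among them shares 89.4% of its sequence with another gene. Of 7 endothelial markers, summing to 83.6, 57.5, 51.9 and 51.7 CPM without and 110.2, 91, 92.2 and 55.4 CPM with MmC, 2 passed higher and 2 lower, and each count fell to 1 when some single libraries of either group were left out. Of 5 epithelial markers 1 passed lower, KRT14, from 66, 76.4, 69 and 48.8 CPM to 19.9, 16.3, 11.8 and 14.6 CPM (log2 fold change -2.06 ± 0.18, adjusted p = 4.79e-07). Of 4 muscle and neural markers 2 passed lower (1 without MmC-/GDF11+ replicate 1 or MmC+/GDF11+ replicate 2, 3 or 4), and their sum went from 38.1, 26.3, 26.7 and 25.7 CPM to 17.9, 9.89, 8.99 and 9.86 CPM. TUBB3, a neuronal tubulin gene, fell from 7.3, 9.95, 11.5 and 11.9 CPM to 3.12, 2.22, 2.15 and 2.17 CPM (log2 fold change -2.08 ± 0.22, adjusted p = 2.55e-06), and 40.3% of its sequence recurs in another gene. Of 9 MSC surface markers 3 passed higher and 2 lower, with PDGFRA the largest (log2 fold change -0.77 ± 0.14, adjusted p = 0.000426). The part of these markers in the other results was not tested. TERT, the immortalizing gene, did not pass (log2 fold change -0.25 ± 0.20, adjusted p = 0.34), and the counts do not separate the transgene from the cell's own copy.

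Whether the MmC effect depended on GDF11 was tested as the difference of the log2 fold changes with and without it. No gene of 19103 passed by edgeR's quasi-likelihood test, DESeq2 or limma-voom, with 172, 137 and 147 genes at an unadjusted p under 0.05. The smallest edgeR adjusted p was 0.99994. The 172 genes were 0.9% of those tested, and with the replicate number as a term 1.55% were under 0.05. Chance alone would put a share of 0.05 there. Both shares lay below that, which can mean a conservative test, and the reason was not tested. Finding no gene therefore does not show that GDF11 left the MmC effect unchanged. The difference had a median of -0.004 over all genes and lay between -0.45 and 0.49 in the middle 90% of them. Among genes with a mean of at least 1 on the log2 CPM scale its 95% interval had a median half-width of 0.39. That width holds for 1 gene without adjustment. To pass over 19103 genes a typical gene needed a larger difference. That fit has no replicate term, and with the replicate number as a term the median half-width was 0.276, again with no gene past the threshold. For PLK1 the difference was 0.05 (95% interval -0.78 to 0.87), for CDKN1A -0.12 (95% interval -0.95 to 0.72), and for CDKN2C 0.04 (95% interval -0.25 to 0.33). For the variable secretory genes the intervals were wide, with -0.09 (95% interval -1.78 to 1.59) for IL6 and 0.01 (95% interval -1.36 to 1.38) for CXCL8. A p that misses the threshold does not show that the effects were equal, and these intervals state the range left. Without GDF11, 8655 genes passed (45.3%), and 7674 passed in both comparisons, each in the same direction. Of the 1252 that passed with GDF11 alone, 62 had an unadjusted p under 0.05 for the difference. The comparisons share no library but share the estimate of the spread. For the mitochondrially encoded genes the median difference was 0.43, with MmC-/GDF11+ replicate 2 low as given above.

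**Figure D5:**
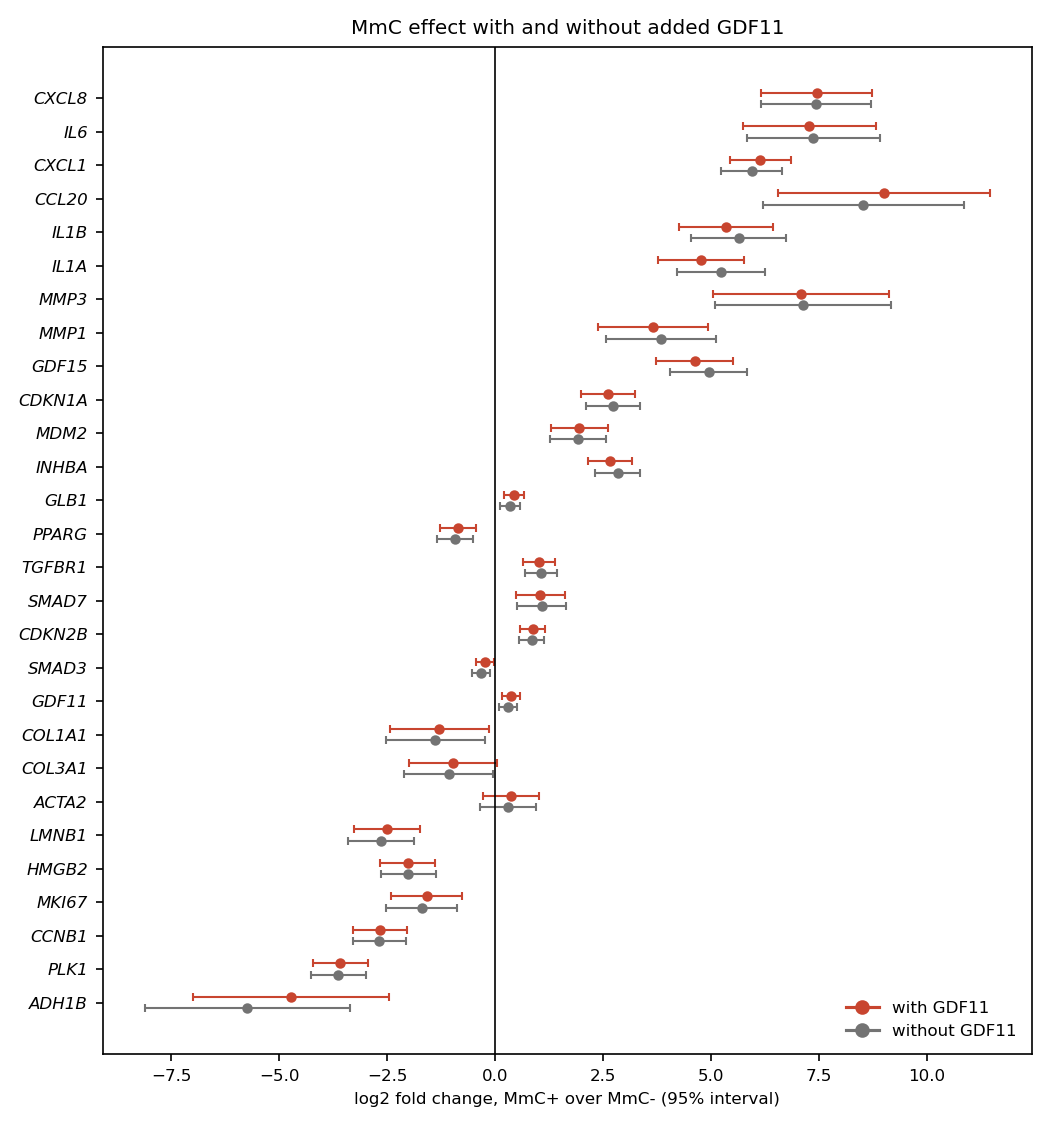
Log2 fold change of MmC+ over MmC- with 95% intervals for 28 genes, with added GDF11 (red) and without (grey). In each gene the 2 intervals overlap, and no difference passed the test.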

How the data were processed

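The values deposited by the authors are raw counts of reads per gene, without normalization, made with HISAT2 2.2.1 (hg38) and featureCounts 2.0.1 per the labels' processing notes. Pair, strand and multi-mapping settings are not given in the sources used here. Reads that fit a second gene or an alternate contig may be missing or misplaced. All 16 count columns were matched to labelled samples (0 left unused). Replicates are labelled biological, and no 2 libraries of a group agreed within sampling noise.

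Tests used edgeR 4.0.16 under R 4.3.3 (filterByExpr minimum count 10 and total 15, TMM, robust quasi-likelihood, 1 mean per group over all 16 libraries, no replicate term), with DESeq2 1.42.0 and limma 3.58.1 as alternatives. Steps were tested on simulated data. The 37 gene lists, written from general knowledge, and the comparison itself were chosen with earlier results of these data known, so their direction is not independent evidence. Named genes were the 10 highest and 10 lowest protein-coding genes (adjusted p under 0.05, mean log2 CPM at least 1, no overlap), the 4 largest passing members of each list, 34 index genes and the 5 lowest p of the difference. Any other member is given by its values. Some genes that the rule names are not reported here. Positions came from GENCODE v44, where 186 of 60649 identifiers had no match, and sharing was measured on stretches of 50 bases. Promoters came from RefSeq (GRCh38.p14). Alternatives were RLE and upper-quartile scaling, other count filters, 8 libraries alone, a replicate block, other tools, thinning and left-out libraries.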

Additional observations from a re-analysis of the deposited data

Results flagged for a closer look

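Looking at 182 sets of 4 values (the index genes, the 20 highest and lowest genes, the summed lists and library measures, in each group), 22 had a lowest or highest library set far from the other 3 (12.1%). Chance flags about 1 set in 20 by this gap, and genes of 1 list are not independent.

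In MmC+/GDF11+, 8 of the far values belonged to replicate 1. These were COL3A1 at 4777 CPM, COL1A1 at 6034 CPM, SLC14A1 at 1.75 CPM, E2F1 at 9.59 CPM, and summed levels of 232 CPM for interstrand crosslink repair genes, 10406 CPM for angiogenic growth factors, 9013 CPM for osteoblast genes and 17.9 CPM for muscle and neural markers. Replicate 4 was far out for PPARG (21.6 CPM), LSP1 (9.94 CPM) and the summed plasminogen system (8367 CPM), and replicate 3 for the summed BMP genes and ID targets (656 CPM).

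In MmC-/GDF11+, replicate 1 was far out for TGFBR1 (62.0 CPM), ERBB3 (10.2 CPM), SMAD3 (129 CPM), HAS1 (0.764 CPM), the summed angiogenic growth factors (5328 CPM) and the summed muscle and neural markers (38.1 CPM). Replicate 2 was far out for GLB1 (76.2 CPM), for CSF3 (0.0134 CPM, a single count), for the summed unfolded protein and integrated stress response genes (6186 CPM) and for the summed mitochondrially encoded genes, at 9891 CPM against 21192 to 22321 CPM in the other 3. In the osteoblast sum the other MmC+/GDF11+ libraries lay between 2967 and 3401 CPM. COL1A1 is part of that sum, so its far value and that of the sum are not separate. The causes were not tested.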

How the results depend on the processing

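The number of genes passing for MmC with GDF11 stayed within 1.5 times of 8926 under every alternative except a test against a 2-fold change and leaving out replicate number 3 from all groups. The test against 2-fold (glmTreat) left 1235 genes, 947 higher and 288 lower, by its own construction. Leaving out single libraries or replicate numbers gave 5505 to 10164 genes, 2973 to 5098 higher and 2532 to 5066 lower, with the 5505 without replicate number 3, and every gene called both ways kept its direction. Replicate numbers were not taken to pair the libraries, because not every same-numbered pair of the 2 groups correlated above 0.1 (0.311, 0.160, 0.0293 and 0.266 for replicates 1 to 4) and the labels name no shared source. Over 4 pairings of groups the same number correlated best in 13 of 16 cases. MmC+/GDF11- with MmC+/GDF11+ reached 0.448 to 0.818, which is a hint from the data and not from the design. The paper names batch effects from technical issues as a limit that lowers statistical power, and does not say which libraries they touch. The main fit has no term for them. With the replicate block 11267 genes passed over 16 libraries and 9275 over the 8, and over 16 libraries 14 collagen and matrix genes passed lower in place of 4, 17 crosslink repair genes in place of 9, 27 replication genes in place of 18, 6 BMP genes and ID targets in place of 3, 4 angiogenic growth factors in place of 1, 4 muscle and neural markers in place of 2 and 3 osteoblast genes in place of 1, while 5 contractile and CCN genes passed higher in place of 1. The difference between the effects with and without GDF11 had 0 genes under every alternative, replicate block included (296 at an unadjusted p under 0.05). Among named genes, those that changed sign had not passed in any fit. CDKN2A was at -0.00619 with the block over 16 libraries and -0.000429 under limma-voom, and between -0.117 and 0.229 with samples left out. E2F1 was at -0.0239 with that block and between -0.0366 and 0.391 with samples left out. Some named genes kept their sign but lost their call under some alternatives. By edgeR, GDF11 did not pass without replicate number 2 (adjusted p = 0.0802). Without replicate number 3, SMAD7 (adjusted p = 0.0685) and PPARG (adjusted p = 0.0502) did not pass. The causes were not tested. With every library thinned to the shallowest, 8642 genes passed, 4442 higher and 4200 lower.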

Other observations

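Gene families outside the lists were read off by symbol after their values were seen, so they are given as counts and log2 fold changes with no test of a family, against 23.4% higher and 23.3% lower over all genes. Transcripts of replication-dependent histones, which mostly lack a poly(A) tail, were higher in poly(A)-enriched RNA after MmC. Of 13 H2B histone genes 11 passed higher and none lower, with a median log2 fold change of 2.43, and of 9 H4 histone genes 6 passed higher and none lower. Of 8 H2A histone genes 6 passed higher and 2 lower. The numbers passing were the same under RLE and upper-quartile scaling, and without MmC+/GDF11+ replicate 1.

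Ribosomal protein genes were lower. Of 50 genes of the large subunit 30 passed lower and none higher (median log2 fold change -0.43), and of 31 of the small subunit 21 passed lower and 1 higher (median -0.51). Under upper-quartile scaling 25 and 21 passed lower. The match by symbol also admits related genes such as RPL7L1 and RPS27L. All 3 NR4A nuclear receptor genes, immediate-early factors, passed higher, with log2 fold changes between 4.24 and 4.58, as did 3 of 4 EGR genes. Of 12 genes with an S100 symbol, a match that also admits S100PBP, 8 passed lower and 1 higher. Long noncoding RNAs passed more often higher than lower, 829 (24.4%) against 400 (11.8%) of 3404 tested, where protein-coding genes split 3407 to 3694 of 13967.

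The 5 genes with the lowest p for a difference between the effects with and without GDF11 were ENSG00000279152, ENSG00000249839, VAMP7, ENSG00000267042 and INTS3, none past the threshold. For the 3 without a symbol, between 78% and 100% of the sequence is shared with another gene, and 76.2% of that of INTS3 recurs on alternate contigs.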
